A study of Ailuropoda melanoleuca with 25 samples.

Results

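CAV3 and TRDN encode 2 proteins of the membranes through which striated muscle is excited. They were chosen by name and identifier (CAV3, ENSAMEG00000012356, and TRDN, ENSAMEG00000007487), and they are 2 of the 25376 genes in the deposited table of the giant panda. Messenger RNA of 5 tissues (heart, kidney, liver, lung, and spleen) was sequenced from each of 5 newly dead animals, which gave 25 libraries. Panda 1 was a female of age 27 that died of ovarian cancer, and panda 2 was a female of age 9 whose cause of death is given as "ileac pssion". Pandas 3 and 4 were females of age 0.5 and panda 5 was a male of age 0.5, and these 3 died of coronavirus infection. The labels give no unit of age, and the age groups also differ in the cause and the year of death. The labels name no treatment of the animals, and the tissues were stored in liquid nitrogen.

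CAV3, or caveolin-3, is the caveolin of muscle cells, and it builds the caveolae of the muscle cell surface (the sarcolemma) and takes part in forming the T-tubules. TRDN, or triadin, spans the membrane of the sarcoplasmic reticulum where that store of calcium faces a T-tubule, and there it binds calsequestrin in the lumen and the ryanodine receptor that releases the calcium. Both genes are linked to inherited disease of heart and skeletal muscle, and the heart makes a shorter form of triadin than skeletal muscle does.

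The values are FPKM, which is the reads on a gene divided by its length and by the total of its library. Levels of different genes can therefore be set side by side. The length of a gene is the same in every library. Such comparisons are therefore approximate where a tissue makes a shorter form, as the heart does of triadin. Between 13149579 and 21383378 reads were counted on genes per library, with a median of 16215828. At that depth 1 read on CAV3, with its short coding length of 465 bases, was worth more FPKM than 1 read on TRDN, with a coding length of 2097 bases. A gene was taken as expressed in a tissue at a mean above 1 FPKM. The 8 matched cardiomyocyte markers, of 10 listed, summed to between 78126 and 91065 FPKM in the hearts and to between 1.71 and 101 FPKM in the other 20 libraries, so each heart library matched its label. None of the 9 fast skeletal muscle markers listed could be matched to an identifier, and the table gives 1 value per gene, so forms of a transcript could not be told apart.

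By that measure CAV3 was expressed in the heart and in no other tissue. In the hearts of pandas 1 to 5 its level was 726, 446, 357, 444, and 419 FPKM, a mean of 478 ± 143 FPKM (SD, n = 5). The heart of panda 1 stood above the other 4, which lay between 357 and 446 FPKM, and without it the mean was 416 ± 41.5 FPKM (SD, n = 4). By mean level CAV3 ranked 274 among the 12657 genes expressed in the heart. The 5 hearts held between 2736 and 5754 reads on CAV3 each, so counting error was small beside the spread between animals.

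Outside the heart CAV3 was at 0 in 14 of 20 libraries. All 5 livers were at 0. The spleens of pandas 2 and 4 were at 0.320 and 0.142 FPKM, the lung of panda 5 was at 0.272 FPKM, and the kidneys of pandas 2, 4, and 5 were at 0.124, 0.133, and 0.255 FPKM. Each of these 6 values came from 1 or 2 reads, and the 20 libraries together held 9 reads on CAV3. Of all 18590 reads on this gene, 99.95% were in the hearts (95% exact binomial interval 99.91 to 99.98%, which covers counting error only). The lowest heart lay 1116-fold above the highest library of any other tissue.

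TRDN was also highest in the heart, though below CAV3, and it had a second and much lower level in the lung. In the hearts of pandas 1 to 5 TRDN was at 51.6, 33.3, 56.3, 33.1, and 62.5 FPKM, a mean of 47.3 ± 13.5 FPKM (SD, n = 5). These hearts fell into a low pair, pandas 2 and 4, and a higher group of 3, and TRDN ranked 1803 among the 12657 genes expressed in the heart. In the lungs TRDN was at 1.21, 0.218, 0.0694, 0.588, and 3.26 FPKM in the same order of pandas, a mean of 1.07 ± 1.30 FPKM (SD, n = 5). The lungs of pandas 1 and 5 were above 1 FPKM, and the other 3 lungs were below 1 FPKM. The lung mean passed 1 FPKM through panda 5, and without that lung it fell below 1 FPKM.

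In the remaining 15 libraries TRDN had at most 1 read each. The livers of pandas 3 and 4 were at 0.0256 and 0.0299 FPKM, the spleen of panda 4 was at 0.0316 FPKM, and the kidneys of pandas 3, 4, and 5 were at 0.0299, 0.0294, and 0.0283 FPKM. The other 9 were at 0. Of the 8526 reads on TRDN, 97.88% were in the hearts (95% exact binomial interval 97.55 to 98.17%), and 175 of the 181 reads outside the heart were in the lungs. The lowest heart lay 10.2-fold above the highest other library, the lung of panda 5.

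**Figure D1:**
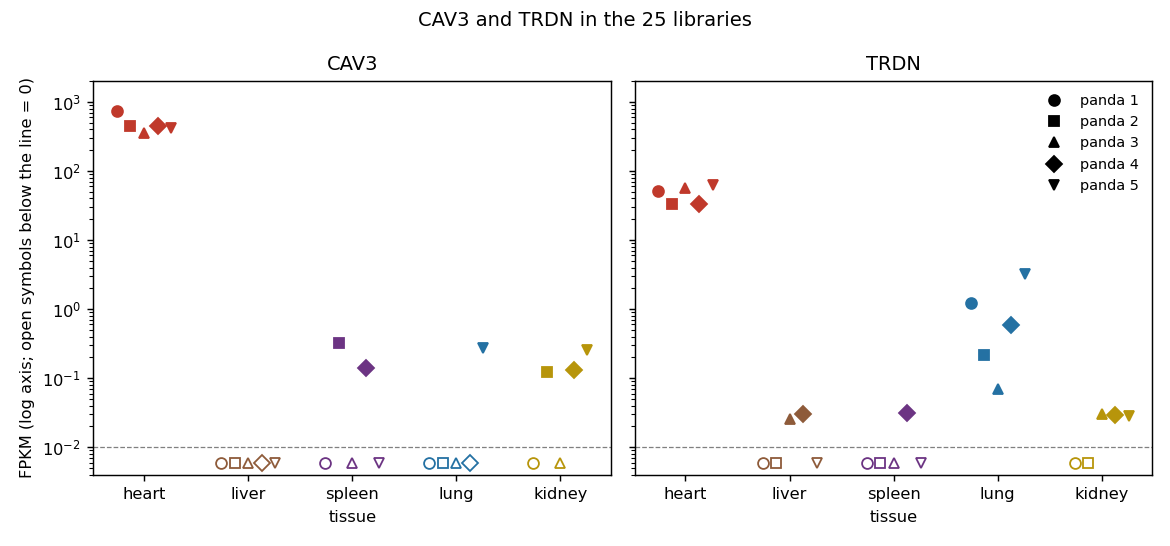
FPKM of CAV3 and TRDN on a log axis in each of the 25 libraries, by tissue, with a symbol shape for each panda, and open symbols below the dashed line for libraries at 0. The CAV3 hearts lie between 357 and 726 FPKM with every other library at or below 0.320 FPKM, and TRDN has a second group of points in the lung, between 0.0694 and 3.26 FPKM.

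For both genes the 5 hearts lay above all 20 other libraries. Over all genes with a value above 0 in a library, 725 of 24207 (3.0%) had hearts that did not overlap with the other tissues in this direction. Ratios were then taken of the mean FPKM of the 5 hearts to the FPKM from the summed reads of another tissue. Their intervals cover counting error in that other tissue only. CAV3 was at least 7025-fold higher in the heart than in the liver. A floor of 3 reads over the 5 livers stood in for the count of 0. For CAV3 the ratio of heart to spleen was 5428 (95% counting interval 1858 to 26323), that of heart to lung 8176 (2263 to 67509), and that of heart to kidney 4469 (1745 to 16401), each with 2 to 4 reads in the lower tissue. The intervals of these 3 ratios overlapped, so the reads did not set an order among spleen, lung, and kidney.

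The ratios of TRDN were also large for 3 tissues, with wide counting intervals, and much smaller for the lung. The ratio of heart to liver was 4704 (95% counting interval 1302 to 38839.9), that of heart to spleen 7270 (1305 to 287142), and that of heart to kidney 2659.8 (910.1 to 12898). The ratio of heart to lung was 41.7 (36.0 to 48.7), an interval that did not reach those of the other tissues. It covers counting error only and leaves out the spread between the lungs, which held 41, 6, 2, 18, and 108 reads in pandas 1 to 5. Within pandas 1 to 5 the heart held 42.8, 152.8, 811, 56.3, and 19.2 times the TRDN level of the lung.

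Tissues were then compared in pairs with limma on log2(FPKM + 1), over genes expressed in at least one of the tissues, and a DEG had to differ by more than 2 on the log2 scale with an adjusted p (Benjamini-Hochberg) under 0.05. Both genes were DEGs in all 4 comparisons of the heart, with the heart higher. Of all genes tested, 8.4% were DEGs higher in heart than in liver, 3.88% than in spleen, 3.4% than in lung, and 3.06% than in kidney. In all 303 genes were higher in heart than in all 4 tissues. That was 1.62% of the 18701 genes tested in any comparison of the heart, of which 13327 were tested in all 4. Both genes are on the study's own list of tissue-specific genes, which was chosen on these samples, so these calls are not independent evidence of their direction.

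For CAV3 the log2 difference was 8.86 (SE 0.26) against liver, 8.74 (SE 0.21) against spleen, 8.79 (SE 0.21) against lung, and 8.73 (SE 0.24) against kidney, and the largest limma adjusted p was 1.02e-10. For TRDN it was 5.53 (SE 0.28) against liver, 5.54 (SE 0.21) against spleen, 4.69 (SE 0.36) against lung, and 5.52 (SE 0.27) against kidney, and the largest limma adjusted p was 2.85e-07. Since 1 was added to every value, these differences understate the change of genes that are near 0 elsewhere. The ratios above, of the heart mean to summed reads, are larger. Ranked by log2 difference from the highest in heart, CAV3 was at 30 of 14278 genes against liver, 21 of 16116 against spleen, 21 of 16518 against lung, and 20 of 15831 against kidney, and TRDN was lower in the order in each, within the first 0.812% of the genes against liver, 0.472% against spleen, 0.696% against lung, and 0.505% against kidney.

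The median gene did not sit at 0 in these comparisons. It was 0.14 higher in heart than in liver on the log2 scale, and its difference was -1.16 against spleen, -1.17 against lung, and -0.76 against kidney. Relative to that median, CAV3 was higher in the heart by 8.72, 9.91, 9.96, and 9.49, and TRDN by 5.39, 6.70, 5.86, and 6.29. With TMM factors the medians lay between -0.12 and -0.07, and CAV3 was then 9.43 to 9.61 and TRDN 5.68 to 6.29 above them. In bulk tissue, fewer cells of a type and less RNA per cell cannot be told apart.

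Ordered by mean level, CAV3 ran from heart through kidney (0.102 FPKM), spleen (0.0924 FPKM), and lung (0.0544 FPKM) to liver (0 FPKM), and the neighbours after the heart did not differ beyond their spread. In limma without a filter on low values, the log2 differences of CAV3 between these 4 tissues were at most 0.14 in size, and the smallest adjusted p, for liver against kidney, was 0.0931. TRDN ran from heart through lung (1.07 FPKM), kidney (0.0175 FPKM), and liver (0.0111 FPKM) to spleen (0.00632 FPKM), and the last 3 differed by no more than 0.02 on the log2 scale, with limma adjusted p of at least 0.471.

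The lung level of TRDN rested on 41, 6, 2, 18, and 108 reads in pandas 1 to 5. The 95% Poisson intervals were 0.865 to 1.64 FPKM in panda 1, 0.0799 to 0.474 FPKM in panda 2, 0.00840 to 0.251 FPKM in panda 3, 0.348 to 0.929 FPKM in panda 4, and 2.67 to 3.93 FPKM in panda 5. Pandas 1 and 5 therefore differed from each other and from pandas 2 and 3 beyond counting error, and the lung of panda 3, with 2 reads, was close to the livers, spleens, and kidneys with 1. All 5 lungs lay above all 15 libraries of liver, spleen, and kidney, which held for 1031 of 24207 genes (4.26%).

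TRDN was no DEG between the lung and another low tissue. In limma the lung was 0.84 higher than the liver (SE 0.31, adjusted p = 0.0277), 0.85 higher than the spleen (SE 0.32, adjusted p = 0.0679), and 0.83 higher than the kidney (SE 0.32, adjusted p = 0.0472) on the log2(FPKM + 1) scale, all below the threshold of 2, which 25.7%, 4.03%, and 7.36% of the genes tested passed in this direction. With a pseudocount of 0.1 the differences were -2.66 (liver minus lung), -2.72 (spleen minus lung), and 2.58 (lung minus kidney), and all 3 were calls, whereas with quantile normalization they were -0.45, -0.56, and 0.55 with limma adjusted p of 0.142, 0.0724, and 0.0651. TRDN passed the filter on mean level in these pairs only through its lung mean of 1.07 FPKM. Without that filter the limma adjusted p were 0.0513 (liver), 0.0994 (spleen), and 0.0719 (kidney). By adjusted p alone, 66.7% of genes were higher in lung than in liver, 15.8% than in spleen, and 33.0% than in kidney. The lung was higher in 5 of 5 pandas, and without the lung of panda 5 the mean differences were 0.53, 0.54, and 0.52.

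CAV3 was at 0 in the lungs of pandas 1 to 4, where a floor of 3 reads corresponded to 0.398, 0.491, 0.469, and 0.442 FPKM. The TRDN levels of pandas 1 and 4 lay above that floor, and those of pandas 2 and 3 lay below it, so that an equal level of CAV3 was not detectable there. In the lung of panda 5 TRDN was 11.97 times as high as CAV3, whereas in every heart CAV3 was the higher gene. The ratio of CAV3 to TRDN in the hearts of pandas 1 to 5 was 14.1, 13.4, 6.34, 13.4, and 6.71, a mean of 10.8 ± 3.90 (SD, n = 5). As log2 of (CAV3 + 1) over (TRDN + 1), the ratio was 3.31 ± 0.58 in heart and -0.79 ± 0.67 in lung (SD, n = 5 each), with ranges of 2.64 to 3.79 and -1.74 to -0.10 that did not overlap. The heart minus lung difference was 4.10 (exact two-sided permutation test, adjusted p = 0.00794 over 4 tissues, the smallest that 5 against 5 libraries allow), which restates that the ranges did not overlap. Since CAV3 was at 0 in the lungs of pandas 1 to 4, the pseudocount also enters the lung ratio. With a pseudocount of 0.1 the difference was 5.76, so its size is not read closely. With the panda as the pair, exact sign changes gave p = 0.0625, the smallest that 5 pairs allow. That test could not have passed the threshold on p, so it decides nothing. Because the ranges did not overlap, the heart ratio was above the lung ratio within each panda. In liver, spleen, and kidney the pseudocount sets the ratio near 0, and no test is read from the differences of 3.33, 3.20, and 3.20.

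**Figure D2:**
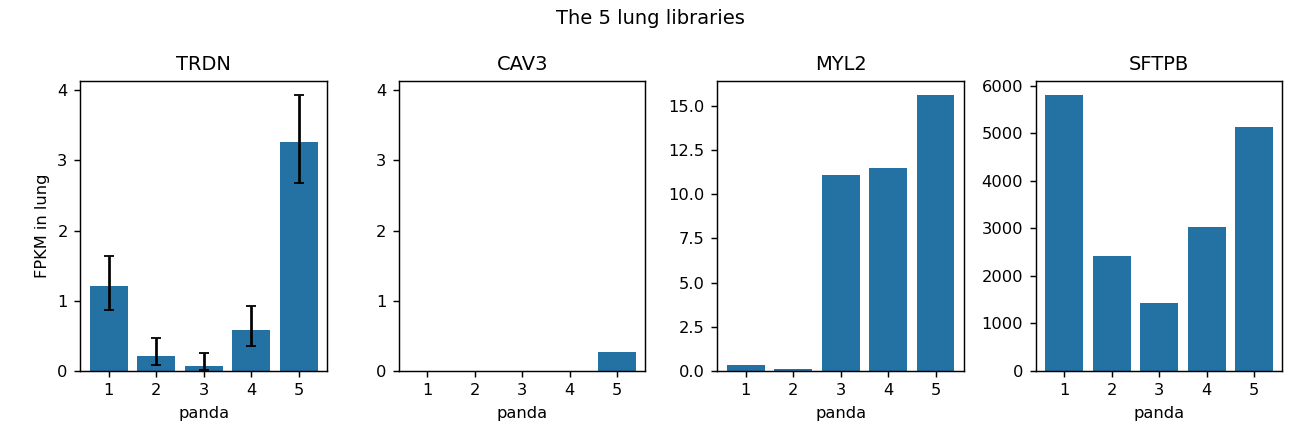
FPKM of TRDN, CAV3, MYL2, and SFTPB in the lung of each panda, as 1 bar per library from 0, with 95% Poisson counting intervals on TRDN and the axis of TRDN repeated for CAV3. TRDN is highest in pandas 5 and 1, at 3.26 and 1.21 FPKM, CAV3 is at 0 in 4 lungs, MYL2 is at or below 0.307 FPKM in pandas 1 and 2, and SFTPB is highest in pandas 1 and 5.

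Genes of cardiac muscle were read at low levels outside the heart. MYL2, the ventricular myosin light chain and the highest of the 8 cardiomyocyte markers in the hearts, was between 0 and 0.863 FPKM in the 8 other libraries of pandas 1 and 2 and between 0.620 and 15.9 FPKM in the 12 of pandas 3 to 5. Pandas 1 and 2 were below pandas 3 to 5 for 7 of the 8 markers in lung and in spleen, for 4 in kidney, and for 2 in liver, and in the kidney the summed markers overlapped, at 50.6 to 52.6 FPKM in pandas 1 and 2 and 21.3 to 101 FPKM in pandas 3 to 5. CAV3 had 3 reads in the first 8 libraries and 6 in the other 12. TRDN had 47 reads in the first 8, all of them in lung, and 134 in the other 12.

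In the lungs of pandas 1 to 5 MYL2 was at 0.307, 0.126, 11.1, 11.5, and 15.6 FPKM, an order unlike that of TRDN. For every 1000 FPKM of MYL2, the hearts held 1.19 to 2.39 FPKM of TRDN, and the lungs of pandas 1 to 5 held 3929.9, 1725, 6.25, 51.2, and 208 FPKM. The values of pandas 1 and 2 divide by 3 reads and 1 read of MYL2, so their size cannot be read closely. No other marker was used as the base, and the size and spread of these proportions depend on that choice. In panda 3 the counting interval of TRDN gave 0.757 to 22.6 FPKM, which includes the proportion of the hearts. For CAV3 the hearts held 11.1 to 21.1 FPKM per 1000 FPKM of MYL2, and the lung of panda 5, the only lung with a read, held 17.4 FPKM.

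Other markers gave other orders in the lung. TNNT2, cardiac troponin T, was at 8.68, 1.88, 4.09, 4.47, and 10.2 FPKM in pandas 1 to 5, and it was 1 of the 8 cardiomyocyte markers in which pandas 5 and 1 were highest, as for TRDN. In the other 7 panda 1 was between 0.0210 and 0.857 FPKM, and below pandas 3 to 5. SFTPB, a surfactant protein gene of the alveolar epithelium, was at 5807, 2413, 1428, 3025, and 5134 FPKM, also highest in pandas 1 and 5, and so was SFTPC, while CLDN18, a claudin of the same epithelium, was at 399.7, 660.1, 122, 801, and 414 FPKM, highest in pandas 4 and 2. MYH11, the myosin of smooth muscle, was at 64.8, 48.6, 44.2, 25.9, and 42.8 FPKM, in an order unlike that of TRDN. Summed over the list, the cardiomyocyte markers ranged from 4.44 to 50.5 FPKM in the lungs, with none of MYL2, TNNT2, and TNNI3 at 0 in a lung, and the part of these cells in the lung level of TRDN was not tested.

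Between the hearts the genes had similar coefficients of variation, 29.9% for CAV3 and 28.5% for TRDN, but different animals were high and low. CAV3 was highest in panda 1 and lowest in panda 3, 2.03-fold apart, and TRDN was highest in panda 5 and lowest in panda 4, 1.89-fold apart. The hearts of pandas 2 and 4 were the lowest for TRDN and followed panda 1 for CAV3. Pandas 2 and 4 were also the lowest pair for CASQ1, TMEM38A, and BVES, among others, in all for 5 of the 26 list genes described next with TRDN included (19.2%), and for 4034 of the 12657 genes expressed in the heart (31.9%). They were the highest pair for CAVIN4, RYR2, JPH1, CACNB2, and ATP2A2, also 5 of 26 (19.2%), against 1782 of the 12657 genes (14.1%).

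The opposite order was seen for CAVIN4, a coat protein of muscle caveolae. It was at 89.9, 261, 129.9, 241, and 77.2 FPKM in the hearts of pandas 1 to 5, so that the pair of hearts lowest in TRDN held the most CAVIN4. RYR2, the ryanodine receptor of the heart, which triadin binds, was at 35.9, 57.2, 27.5, 47.4, and 31.95 FPKM. No test was made of these orders, which were noted after the values were seen.

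**Figure D3:**
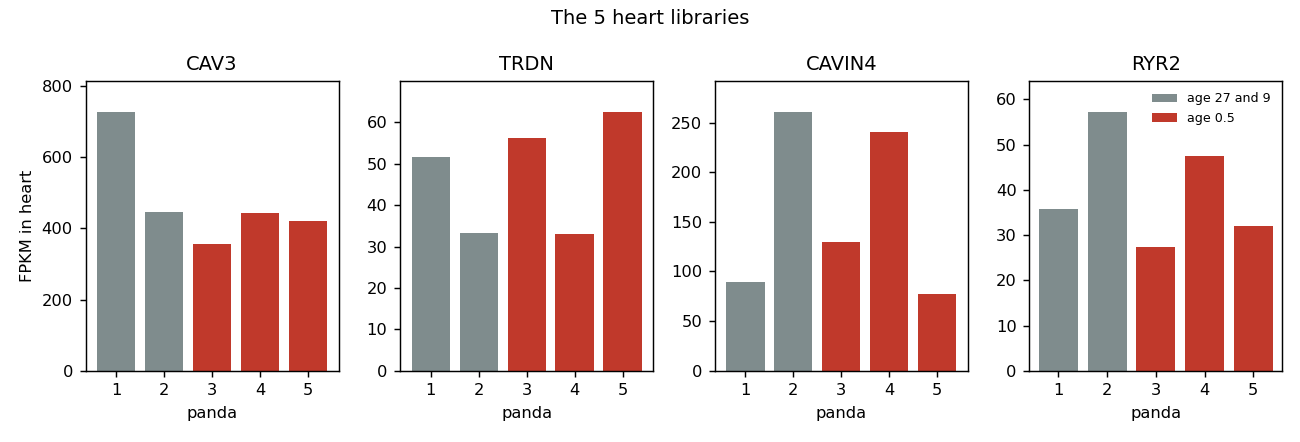
FPKM of CAV3, TRDN, CAVIN4, and RYR2 in the heart of each panda, as 1 bar per library from 0, grey for the pandas of age 27 and 9 and red for those of age 0.5. CAV3 is highest in panda 1, TRDN is lowest in pandas 2 and 4, and CAVIN4 and RYR2 are highest in pandas 2 and 4.

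The age grouping of the hearts gave no call for either gene. CAV3 was at 407 FPKM (357 to 444, n = 3) in the pandas of age 0.5 and at 586 FPKM (446 to 726, n = 2) in the older pandas, ranges that did not overlap but whose nearest values were 444 and 446 FPKM, and 1445 of the 12657 genes (11.4%) had all 3 young hearts below both older ones. The limma log2 difference, young minus older, was -0.49 (SE 0.30), with a limma adjusted p = 0.999, and without the heart of panda 1 it was -0.14. TRDN was at 50.6 FPKM (33.1 to 62.5, n = 3) and 42.4 FPKM (33.3 to 51.6, n = 2), ranges that overlapped. Its log2 difference was 0.23 (SE 0.39), with a limma adjusted p = 0.999. Without the heart of panda 2 this difference was -0.08. No gene of 12657 (0.0%) passed the adjusted p in limma, and 558 had an unadjusted p below 0.05. In simulated hearts in groups of 3 and 2, 117 of 200 genes changed 8-fold were recovered among 12567 genes. All were drawn from the means and spreads of the 2 older hearts, and recovery also required a log2 difference beyond 2. The simulation therefore does not say how often the age comparison would find a change, and smaller changes were not simulated. Age, cause, and year of death cannot be told apart.

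Other genes of the same membranes were read from 5 lists with 60 symbols in all, of which 26 could be matched to an identifier. Matching rested on the names in the study's list of tissue-specific genes, so the matched genes were chosen on these samples and say nothing independent about direction. With CAV3 and TRDN included, 19 of the 26 were higher in heart than in all 4 tissues, against 303 of the 13327 genes tested in all 4 comparisons. For each gene the smallest of its 4 log2 differences, heart minus other tissue, is given, and over the 13327 genes the median of this value was -1.48.

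Of the caveola list 2 of 10 symbols were matched, CAV3 and CAVIN4, and both were higher in heart than in all 4 tissues, with a median smallest log2 difference of 7.67. CAVIN4 was at 159.7 ± 85.6 FPKM in the heart (SD, n = 5) and at most at 1.35 FPKM elsewhere, and its smallest log2 difference, against kidney, was 6.62 (SE 0.38). The caveolins and cavins of other cell types were not analysed here.

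Of the calcium release unit, 11 of 17 symbols were matched and 9 were higher in heart than in all 4 tissues, with a median smallest log2 difference of 4.65. The partners that triadin binds in the lumen were among them. CASQ2, the cardiac calsequestrin that stores calcium in the reticulum, was at 245 ± 45.9 FPKM (SD, n = 5) in the heart and at most at 0.213 FPKM elsewhere, with a smallest log2 difference of 7.78 (SE 0.18). HRC, the histidine-rich calcium-binding protein of the same lumen, was at 129 ± 24.1 FPKM in the heart, with a smallest log2 difference of 4.65 (SE 0.21) against lung. CASQ1, the calsequestrin of fast skeletal muscle, was at 21.9, 2.99, 9.35, 1.27, and 3.56 FPKM in the hearts of pandas 1 to 5, a much wider spread than that of TRDN. Its smallest log2 difference of 2.18 (SE 0.49) against spleen lost its call without panda 1 or without panda 3.

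The channel and its neighbours followed. RYR2 was at 39.98 ± 12.1 FPKM in the heart (SD, n = 5), close to the level of TRDN, and at most at 0.734 FPKM elsewhere, with a smallest log2 difference of 4.80 (SE 0.28) against kidney. S100A1, a calcium sensor that binds ryanodine receptors, was at 1367 ± 395 FPKM, with a smallest log2 difference of 8.42 (SE 0.54). SRL, or sarcalumenin, a calcium-binding protein of the reticulum, was at 60.7 ± 11.9 FPKM, with a value of 4.87 (SE 0.32), and TMEM38A, a cation channel of the reticulum, was at 66.0 ± 14.6 FPKM, with a value of 2.79 (SE 0.22). JPH2, the junctophilin that ties the reticulum to the T-tubule in the heart, was at 45.9 ± 24.8 FPKM, with a value of 3.20 (SE 0.40) against lung.

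The 2 genes of this list without a call in all 4 comparisons were JPH1 and RYR3. JPH1, the junctophilin best known from skeletal muscle, was at 10.01 ± 4.62 FPKM in the heart and reached 7.93 FPKM in the lung, and its log2 difference between them was 0.71 (SE 0.32, limma adjusted p = 0.0537), whereas it was a DEG against the other 3 tissues. RYR3, the ryanodine receptor found in many tissues, was between 3.41 and 7.03 FPKM in the spleens and at most at 0.149 FPKM in the hearts, with a log2 difference of -2.54 (SE 0.19, limma adjusted p = 1.72e-07), a direction in which 19.4% of genes were called.

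The T-tubule calcium entry list had 2 of 9 symbols matched, both subunits that accompany the pore of the L-type calcium channel, and neither was higher in heart than in all 4 tissues. CACNB2 was at 18.3 ± 7.32 FPKM in the heart with a smallest log2 difference of 0.92 (SE 0.25) against spleen, and CACNA2D1 was at 10.003 ± 2.16 FPKM with a value of 1.73 (SE 0.20) against lung, and each was a DEG higher in heart in 2 comparisons. With TMM factors both passed in all 4 comparisons. The calcium pump list had 2 of 4 symbols matched and both passed, with a median of 3.39. ATP2A2, the pump that refills the cardiac reticulum, was at 355 ± 133 FPKM with a smallest log2 difference of 2.33 (SE 0.27) against spleen, and PLN, or phospholamban, which restrains the pump, was at 3189 ± 1019.9 FPKM with a value of 4.45 (SE 0.27).

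Of the sarcolemma complex and repair list 9 of 20 symbols were matched and 6 were higher in heart than in all 4 tissues, with a median smallest log2 difference of 2.80. The highest values were those of POPDC2 and BVES, membrane proteins that bind cyclic AMP, at 5.25 (SE 0.28) and 3.69 (SE 0.29). DTNA, a dystrobrevin, and the sarcoglycan SGCA, both members of the dystrophin complex, were at 2.76 (SE 0.21) and 2.80 (SE 0.32). SGCB, also a sarcoglycan, DAG1, or dystroglycan, and SSPN, or sarcospan, had values of 1.55 (SE 0.17), 1.25 (SE 0.41), and 1.13 (SE 0.38), below the threshold, and with TMM factors all 3 passed. CAV3, at 8.73, had the highest value of the 26 genes, followed by S100A1 and CASQ2, and TRDN, at 4.69, lay between RYR2 and HRC. This order also follows the heart level of genes near 0 elsewhere, because 1 was added to every value.

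**Figure D4:**
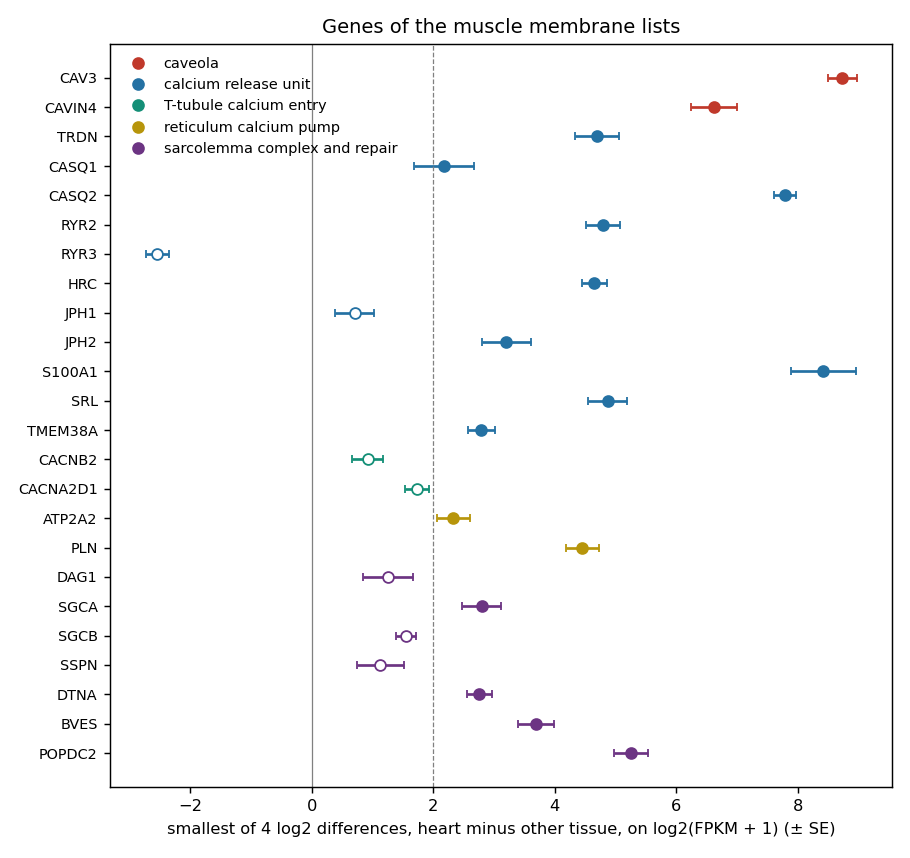
Smallest of the 4 log2 differences, heart minus another tissue, on log2(FPKM + 1) with its standard error, for 24 of the 26 matched list genes, coloured by list, filled where the gene was a DEG higher in heart than in all 4 tissues, with lines at 0 and at the threshold of 2. CAV3 is highest at 8.73, TRDN is at 4.69, and RYR3 is the only gene below 0, at -2.54.

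Across the 25 libraries CAV3 and TRDN had a Pearson r of 0.975 on log2(FPKM + 1), which is a description, since the libraries share animals and 5 of them are hearts that stand apart from the rest for both genes. Of 18700 other genes expressed in at least one tissue, 181 reached an r of 0.95 with CAV3 and 131 with TRDN. TRDN was 91st among the genes nearest to CAV3, and CAV3 was 16th among those nearest to TRDN. Among the 5 named genes nearest to CAV3 were CASQ2 (r = 0.9985), PRKAG3 (0.9972), ABRA (0.9967), and IQCA1L (0.9965), and those nearest to TRDN were TRIM55 (0.9851), SMPX (0.9824), FBXO40 (0.9806), TTN (0.9794), and KLHL31 (0.9792). Names were known for 1778 identifiers, so unnamed genes lay among these.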

How the data were processed

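Messenger RNA of 5 tissues from each of 5 giant pandas was measured in 25 libraries. HISAT2 was used by the authors to align the filtered reads to the genome build ailMel1, Cufflinks and Cuffcompare to assemble further genes, and HTSeq (union mode) to count. The deposited values are the FPKM of 25376 genes per library, and no normalization between libraries is stated. They used DESeq, which could not be run on FPKM.

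Whole reads were recovered from the steps of the low FPKM values for 24205 of the 24207 genes above 0, to within 0.05 reads. On simulated data 23710 of 24013 genes were exact. Over the 18926 genes with more than 200 recovered reads, 76.0% of the recovered lengths were multiples of 3. They are therefore called coding length, though this was not checked for single genes. Intervals and floors cover counting error only.

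Libraries were grouped by the labelled tissue. Same-numbered libraries carry the same age and date of death in the labels, so they came from the same animal. After removal of tissue means they correlated at 0.0600 to 0.521 (median 0.367), with 49 of 50 pairs above 0.1, and libraries of different pandas at -0.469 to 0.377 (median -0.122).

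Pairs of tissues were compared without a block, as the study did, with limma 3.58.1 in R 4.3.3 (trend, two-sided) on log2(FPKM + 1), for genes expressed (mean over 1 FPKM) in either tissue. In simulated libraries, all drawn from the means and spreads of the lungs, 193 of 200 genes changed 8-fold were recovered among 15858 genes, with 2 false calls. Single values used exact permutation tests over all relabelings. Python 3.11.15 with numpy 2.4.6, pandas 2.3.3, scipy 1.17.1, and matplotlib 3.10.9 was used for the rest.

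Named genes were both members, the matched genes of fixed lists, and the 5 named genes nearest to each member by Pearson r. Of 110 symbols on all lists, marker lists included, 51 were matched, through 1778 names in the study's list. The smooth muscle list had 1 of 6 matched, and the fast skeletal muscle and endothelium lists had 0 of 9 and 0 of 5. The genes, lists, and tests were chosen with earlier results of these data known. Alternatives were a pseudocount of 0.1, no filter, TMM factors (30% of log ratios and 5% of levels trimmed), quantile normalization, 1 fit over all libraries, the panda as a block, limma-voom on recovered reads, and each panda left out in turn. Genome positions and sequences were not used here, and 3 genes that the rule names are not reported here.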

Additional observations from a re-analysis of the deposited data

Results flagged for a closer look

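A library was marked when its gap to the nearest of the 5 libraries of its tissue, over their whole range, exceeded Dixon's critical value of 0.71, which chance exceeds in about 1 of 20 groups. CAV3 in the heart of panda 1, at 726 FPKM, stood above the other 4 hearts with a gap of 0.759 of the range. CAV3 in the lung of panda 5, at 0.272 FPKM, was marked because the other 4 lungs were at 0, and it rested on 2 reads. TRDN in the spleen of panda 4, at 0.0316 FPKM, was marked because the other 4 spleens were at 0, and it rested on 1 read. In that spleen the alveolar gene SFTPC was at 99.3 FPKM, against at most 6.07 FPKM in the other 4 spleens, and its part in the TRDN read was not tested.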

How the results depend on the processing

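Both genes were higher in heart than in all 4 tissues under each alternative run, with log2 differences of 8.53 to 12.98 for CAV3 and 4.43 to 11.18 for TRDN, and a largest limma adjusted p of 1.09e-05. The panda as a replicate block left every heart call in place, and it gave adjusted p of 0.0284, 0.0497, and 0.0397 for TRDN in lung against liver, spleen, and kidney, at differences of -0.84, -0.85, and 0.83 (liver minus lung, spleen minus lung, and lung minus kidney). Exact sign changes within pandas gave p = 0.0625, the smallest they can give, so they could not have passed 0.05 and decide nothing. They were run for the CAV3 to TRDN ratio, at 3.33 (liver), 3.20 (spleen), 4.10 (lung), and 3.20 (kidney), and for TRDN in lung, at 0.84, 0.85, and 0.83. An exact permutation test of TRDN in lung, chosen after seeing the data, can only restate that the lungs did not overlap with the other 3 tissues. The same 3 comparisons of TRDN in lung passed both thresholds with a pseudocount of 0.1, at -2.66, -2.72, and 2.58 (adjusted p = 0.00394, 0.0131, and 0.0107), and in limma-voom, at -4.82, -4.81, and 4.29 (adjusted p = 0.00121, 0.0113, and 0.00806), where less was added to the low values. Their limma adjusted p missed 0.05 with quantile normalization, at -0.45, -0.56, and 0.55 (0.142, 0.0724, and 0.0651), and without a filter (0.0513, 0.0994, and 0.0719). All 3 also missed it without replicate 1 (0.0914, 0.192, and 0.140) and without replicate 4 (0.051, 0.118, and 0.0619). Without replicate 2 the spleen and kidney comparisons missed it (0.0799 and 0.0685), and without replicate 3 the spleen comparison did (0.0535). With TMM factors, and in limma without panda 5, TRDN in lung was not tested, because its mean fell to 1 FPKM or below. The T-tubule calcium entry list went from 0 to 1 gene with a pseudocount of 0.1 (CACNA2D1) and to 2 with TMM factors and with quantile normalization. All genes higher in heart than in all 4 tissues numbered 303, and 497 with the smaller pseudocount, 525 with TMM factors, 529 with quantile normalization, and 508 in limma-voom, of which 20, 24, 23, and 20 were list genes. With 1 heart left out, the age difference ranged from -0.84 to -0.14 for CAV3 and from -0.08 to 0.54 for TRDN, whose sign turned without panda 2 (-0.08). The reads limit what can be said of the low tissues, where CAV3 had 0 to 4 reads per tissue and TRDN, outside the lung, 1 to 3.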
